A study of Mus musculus with 4 samples.

Results

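The genes of 8 transcription factors at the core of the pancreatic acinar program, *Ptf1a*, *Rbpj*, *Rbpjl*, *Nr5a2*, *Nr0b2*, *Bhlha15*, *Gata4* and *Gata6*, were followed through a genome-wide map of NFIC binding in mouse pancreas. NFIC belongs to the nuclear factor I (NFI) proteins, a family of transcription factors. Every entry of the deposited peak list that names one of the 8 genes as the nearest was taken, whatever its position or score. This gave 27 of 15824 peaks and 8 of 9086 genes in the list. *Nr5a2* had 7 peaks, *Bhlha15* and *Gata4* had 5 each, *Gata6* had 4, *Ptf1a* and *Nr0b2* had 2 each, and *Rbpj* and *Rbpjl* had 1 each. Pancreas chromatin of mice 8 to 12 weeks old in the deposited description, and of a strain labelled Mixed, was precipitated with an anti-NFIC antibody and sequenced in 3 ChIP libraries. A further library held input DNA of pancreas, and no treatment or other genotype was part of these groups. The paper, not the labels, gives the mice as wild type, and it gives a narrower range of age. The labels do not say which mouse each library came from, and whole pancreas holds other cell types beside acinar cells, so a peak cannot be tied to acinar cells from this list. The list merges the 3 libraries and has no value for a single library or for the input, so the values below have no replicate error, the depth is unknown, and the tissue could not be checked against its marker genes.

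PTF1A is a basic helix-loop-helix (bHLH) protein that forms the PTF1 complex with an E-protein partner and RBPJ, the DNA-binding effector of Notch signaling. RBPJL, a paralog of RBPJ, takes its place in the complex of mature acinar cells, where PTF1 drives the genes of digestive enzymes. The orphan nuclear receptor NR5A2 acts on many of the same genes, and its activity is repressed by SHP, the product of *Nr0b2*, a nuclear receptor without a DNA-binding domain. *Bhlha15* codes for MIST1, a bHLH factor needed for the secretory architecture of the cell, and the zinc finger factors GATA4 and GATA6 act in pancreas development and in the upkeep of acinar identity. NFI proteins bind as dimers to a palindrome made of the arm TGGC, a spacer of 5 bases and the same arm in reverse, and with lower affinity to a single arm.

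Sequences of 200 bp centred on the peaks were read from the RefSeq genome of GRCm38 (mm10) and are shown on the plus strand. The NFI full site was searched as TGGCNNNNNGCCA, of whose 8 fixed bases 1 was allowed to differ, and the single-arm site as TTGGCA. The other strings were CAAGGNCA for NR5A2, CAGCTG as a form of the E-box (CANNTG) of bHLH dimers, and GATAAG for GATA factors. They were searched without mismatch and on both strands. Below, E-box means CAGCTG only, and its other forms were not searched. The single-arm site and the NR5A2 octamer can share the bases TGGC with a full site. Capitals mark all matches to these 5 strings, and a match is a description of the letters only. The windows at *Nr0b2* and *Bhlha15* are shown first, because these genes have a promoter peak and a distal peak in the highest score quartile of the list. In each pair, a window close to the transcription start site (TSS) stands beside a distal one.
Nr0b2 -492 bp, chr4:133552784-133552983: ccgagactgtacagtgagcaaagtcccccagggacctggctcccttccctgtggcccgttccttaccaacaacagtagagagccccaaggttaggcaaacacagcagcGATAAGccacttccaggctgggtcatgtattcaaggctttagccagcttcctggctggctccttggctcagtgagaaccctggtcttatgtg
Nr0b2 9907 bp, chr4:133563183-133563382: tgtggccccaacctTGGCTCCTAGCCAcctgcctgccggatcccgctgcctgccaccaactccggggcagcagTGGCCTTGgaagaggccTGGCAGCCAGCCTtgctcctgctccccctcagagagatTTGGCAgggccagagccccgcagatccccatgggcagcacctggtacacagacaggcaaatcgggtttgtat
Bhlha15 -187 bp, chr5:144189999-144190198: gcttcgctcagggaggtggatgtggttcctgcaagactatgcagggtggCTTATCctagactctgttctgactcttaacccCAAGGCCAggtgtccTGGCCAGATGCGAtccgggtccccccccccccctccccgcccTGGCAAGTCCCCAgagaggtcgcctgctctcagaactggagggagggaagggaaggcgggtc
Bhlha15 -26945 bp, chr5:144163241-144163440: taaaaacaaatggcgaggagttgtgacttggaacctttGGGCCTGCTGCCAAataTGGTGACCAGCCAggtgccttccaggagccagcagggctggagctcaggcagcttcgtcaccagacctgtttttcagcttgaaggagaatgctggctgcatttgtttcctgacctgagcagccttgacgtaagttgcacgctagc

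At *Ptf1a* and *Rbpjl*, the windows closest to the TSS are shown. Those of *Rbpjl* lie to either side of its TSS, and the downstream one, from intron 1 of *Rbpjl*, is assigned to the overlapping gene *Matn4* in the list. Capitals mark the same 5 strings.
Ptf1a -1534 bp, chr2:19444029-19444228: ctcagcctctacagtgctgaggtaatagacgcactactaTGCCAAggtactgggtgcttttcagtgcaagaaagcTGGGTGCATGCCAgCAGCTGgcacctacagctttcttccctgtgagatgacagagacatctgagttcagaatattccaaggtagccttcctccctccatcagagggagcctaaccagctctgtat
Rbpjl -1379 bp, chr2:164401715-164401914: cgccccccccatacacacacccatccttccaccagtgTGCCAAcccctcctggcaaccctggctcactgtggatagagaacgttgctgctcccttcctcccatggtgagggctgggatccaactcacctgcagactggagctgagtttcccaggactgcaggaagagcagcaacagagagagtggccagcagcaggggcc
Rbpjl 1133 bp, chr2:164404227-164404426: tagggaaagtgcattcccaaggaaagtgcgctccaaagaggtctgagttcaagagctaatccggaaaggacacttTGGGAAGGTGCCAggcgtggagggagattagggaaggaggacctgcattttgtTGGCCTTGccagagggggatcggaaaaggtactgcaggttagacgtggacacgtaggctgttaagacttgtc

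The remaining windows come from the long genes. Those of *Nr5a2* are its highest peak, the peak with an exact NFI full site and a peak that holds the octamer of NR5A2 itself. Those of *Gata4* are the most distal peak and a peak in intron 2 of *Gata4* that the list gives to *Neil2*. Both genes are transcribed from the minus strand, and the capitals have the same meaning.
Nr5a2 19407 bp, chr1:136934123-136934322: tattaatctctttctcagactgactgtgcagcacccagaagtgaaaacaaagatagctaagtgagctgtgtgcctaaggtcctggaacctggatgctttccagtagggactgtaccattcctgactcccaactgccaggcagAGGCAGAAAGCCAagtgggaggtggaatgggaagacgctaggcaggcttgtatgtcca
Nr5a2 53941 bp, chr1:136899589-136899788: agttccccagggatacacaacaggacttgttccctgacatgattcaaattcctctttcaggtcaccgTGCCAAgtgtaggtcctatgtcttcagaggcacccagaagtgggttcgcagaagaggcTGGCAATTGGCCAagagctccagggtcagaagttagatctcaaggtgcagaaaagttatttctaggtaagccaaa
Nr5a2 93917 bp, chr1:136859613-136859812: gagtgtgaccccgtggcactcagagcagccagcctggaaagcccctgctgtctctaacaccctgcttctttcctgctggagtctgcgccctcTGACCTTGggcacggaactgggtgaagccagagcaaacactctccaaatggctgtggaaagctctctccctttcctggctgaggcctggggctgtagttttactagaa
Gata4 -83994 bp, chr14:63329165-63329364: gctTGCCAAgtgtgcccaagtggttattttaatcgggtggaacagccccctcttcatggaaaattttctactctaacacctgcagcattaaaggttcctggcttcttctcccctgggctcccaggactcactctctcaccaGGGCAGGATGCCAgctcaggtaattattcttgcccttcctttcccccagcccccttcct
Gata4 35179 bp, chr14:63209992-63210191: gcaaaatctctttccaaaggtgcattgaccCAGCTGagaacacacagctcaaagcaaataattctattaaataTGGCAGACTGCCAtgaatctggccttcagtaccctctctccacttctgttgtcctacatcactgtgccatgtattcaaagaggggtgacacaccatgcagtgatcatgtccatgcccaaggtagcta

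All 8 genes had at least 1 peak, against 37.2% of the 21000 protein-coding genes of the RefSeq annotation that have a curated mRNA. Genes without expression in pancreas are part of that background. The genes *Nr5a2*, *Bhlha15*, *Gata4* and *Gata6* had 4 or more peaks, as did 3.17% of protein-coding genes. A peak between -1000 bp and the TSS, the window taken for promoters, was present at *Nr0b2*, *Bhlha15* and *Rbpj*, against 10.7% of protein-coding genes. The 8 genes were chosen with earlier results of this list known, so these counts are descriptions and no test was made.

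Most of the 27 peaks lay far upstream. By the distance of the annotation, 22 of them (81.5%, 95% Wilson interval 63.3 to 91.8) were upstream of the nearest TSS, against 44.5% of all peaks. Of the 27 peaks, 20 (74.1%) were over 10 kb from it, against 50.9%, and their median distance was 31440 bp, against 10438 bp. The list places 14 of them in intergenic sequence (51.9%, background 30.6%), 9 in introns (33.3%, background 40.8%), 3 in the promoter-TSS class (11.1%, background 20.7%) and 1 in an exon (3.7%, background 3.20%). Of the 9 intronic peaks, 6 lay in an intron of another gene, *Lmtk2*, *Matn4* or *Ptf1aos*, against 23.6% of the intronic peaks of the list. The intervals cover counting error only, and peaks of 1 gene share its locus, so they are not independent.

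**Figure D1:**
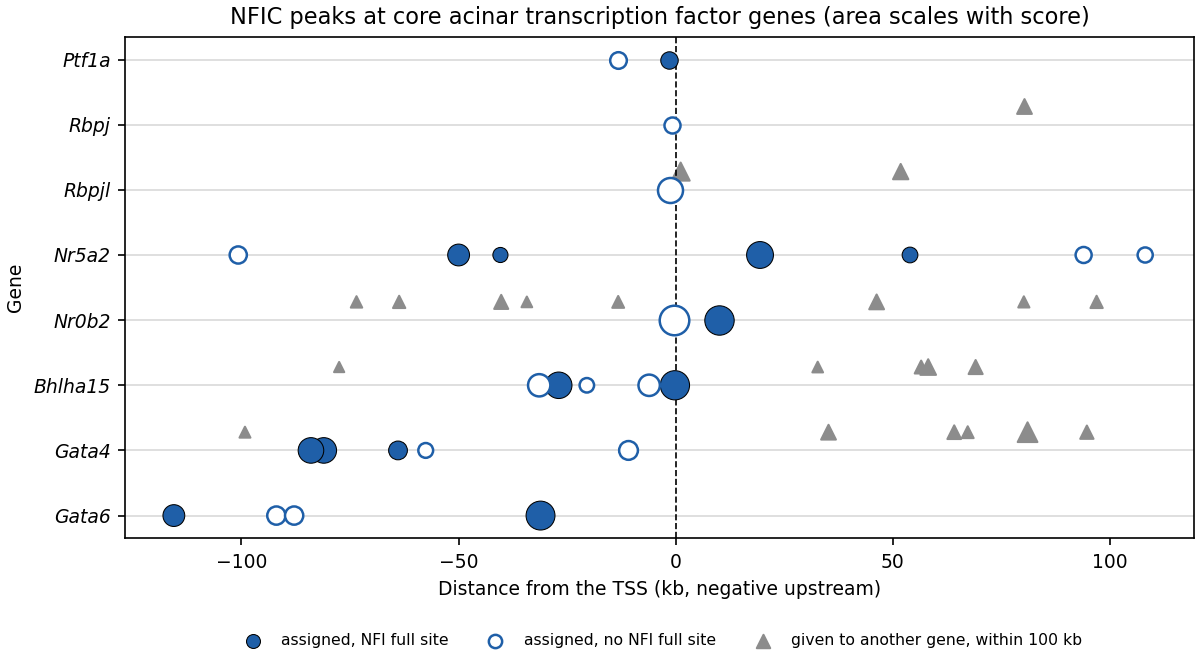
Distance of each NFIC peak from the TSS (kb, negative upstream) at the 8 genes. Blue circles are the 27 assigned peaks, filled where the 200-bp window holds an NFI full site, and grey triangles are the 22 peaks within 100 kb that the list gives to another gene. The area of a symbol scales with the score within each symbol type. Assigned peaks of *Gata4* and *Gata6* all lie upstream, and those of *Nr5a2* lie on both sides.

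The peak score is the authors' own, on a scale that they do not name, and was used only to order peaks within the list. It takes 161 values in steps of about 0.2, so many peaks tie. Scores of the 27 peaks ran from 4.38 to 18.3 with a median of 7.37, and the list had a median of 6.57 and a maximum of 68.1. The highest quartile of the list began at 9.16 and held 13 of the 27 peaks (48.1%, 30.7 to 66.0), against 25.5% of all peaks. The upper 2 quartiles held 17 peaks (63.0%, 44.2 to 78.5), against 51.6%, a share within the counting interval. None of the 27 was in the top 1% of the list, which began at 22.3. By gene, a peak of the highest quartile was present at *Rbpjl*, *Nr5a2*, *Nr0b2*, *Bhlha15*, *Gata4* and *Gata6*, 6 of the 8 genes. Such a peak was present at 12.5% of all protein-coding genes and at 33.7% of those with a peak, and a gene with several peaks has more chances of one. *Ptf1a* and *Rbpj* had no peak above the median of the list.

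**Figure D2:**
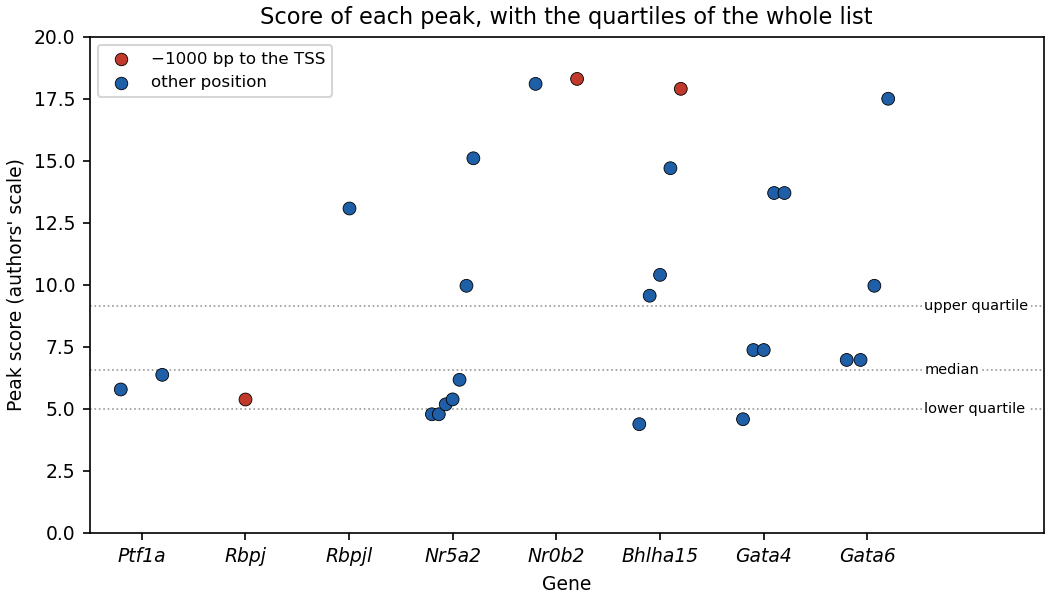
Score of each of the 27 peaks (authors' scale, linear axis from 0) by gene, with the 3 quartile limits of the whole list as dotted lines. Red points lie between -1000 bp and the TSS. The 2 peaks of *Nr0b2* stand at 18.3 and 18.1, and those of *Ptf1a* and *Rbpj* lie between the lower quartile and the median.

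Of the PTF1 genes, *Ptf1a* (chromosome 2) had 2 peaks of moderate score upstream of the gene. The nearer one (chr2:19444043-19444215, -1534 bp, score 6.37) lay in intron 2 of 3 of *Ptf1aos*, a noncoding transcript beside *Ptf1a*. As printed above, its window holds TGGGTGCATGCCA, which has the substitution C4G against the full site (positions counted from 1 at the 5′ end of the plus-strand match). The E-box CAGCTG follows it after 1 base. The farther peak (chr2:19432248-19432420, -13329 bp, score 5.78) was in a CpG island by the detailed annotation and held none of the 5 strings. Its window had 64.5% GC, against a median of 54.0% in the list, and 2 copies of the SP string GGGCGG. No other peak of the list lay within 100 kb of the *Ptf1a* TSS, and 56.3% of protein-coding genes had at least these 2.

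*Rbpj* and *Rbpjl*, the paralogs that occupy the same place in PTF1, each had a single peak, with unlike scores. The *Rbpj* peak (chr5:53589320-53589492) scored 5.38 and lay at -940 bp of the TSS of NM_009035, in the promoter-TSS class. The same position is 33627 bp downstream of the first TSS of the gene, in intron 1 of 10 of NM_001080928, so it lies near an internal TSS. It held neither a full nor a single-arm NFI site, and 67.5% of its window was G or C. The *Rbpjl* peak (chr2:164401729-164401901, -1379 bp) scored 13.1, above 90.5% of the list, and lay in intron 2 of 10 of *Matn4*, which codes for a matrix protein and overlaps *Rbpjl* by 1967 bp on the opposite strand. It held the single-arm site TTGGCA on the minus strand and no full site.

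A further peak at *Rbpjl* is not among the 27. It lay at 1133 bp downstream of the *Rbpjl* TSS (chr2:164404241-164404413, score 12.5), in intron 1 of 11 of *Rbpjl*, and the list assigns it to *Matn4*, whose TSS is 491 bp away. Its window holds TGGGAAGGTGCCA, a full site with 1 mismatch whose first bases also spell TGGGAA, the core string of RBPJ and RBPJL. The NR5A2 octamer CAAGGCCA lies farther along, on the minus strand. The *Rbpjl* TSS thus lay between 2 peaks of nearly equal score, of which 1 is counted for *Rbpjl*. This peak and others assigned to neighbours were chosen after their values were seen.

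*Nr5a2* (chromosome 1) had the most peaks of the 8 genes, and 1.49% of the protein-coding genes with a peak had 7 or more. They spanned 216 kb, with 4 in the gene body and 3 upstream. The list measures the distances in the gene body from the TSS of NM_001159769 and the upstream ones from that of NM_030676, which are 6818 bp apart. The highest peak (chr1:136934137-136934309, 19407 bp, score 15.1) lay in intron 6 of 8 and was above 94.1% of the list. Its window holds AGGCAGAAAGCCA, a full site with the substitution T1A. A second peak in the same intron (chr1:136899603-136899775, 53941 bp) scored 5.18 and held the exact full site TGGCAATTGGCCA. Between these 2 peaks of 1 intron, the exact site thus stood in the one with the lower score.

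The remaining peaks of the *Nr5a2* gene body lay towards its 3′ end. That in intron 8 of 8 (chr1:136859627-136859799, 93917 bp, score 5.38) held neither of the NFI strings searched. Its only match was CAAGGTCA, the octamer that NR5A2 itself recognises, with its middle 4.5 bp from the peak centre. The peak in exon 9 of 9 (chr1:136845453-136845625, 108091 bp, score 4.78) had 163 of its 173 bases in coding sequence and the lowest focus ratio of the 27, 0.54. The focus ratio is the fraction of the tags of a peak that stand where a single binding site would place them, and its median was 0.71 in the 27 peaks and 0.684 in the list. Upstream, the peak at -49996 bp (chr1:137010358-137010530) scored 9.96 and held a full site with G10T, 2 copies of TGGGAA and GATAAG. The peak at -40367 bp (chr1:137000729-137000901, score 4.78) was annotated to the long terminal repeat RMER19C, while 26% of its window was soft-masked as repeat in the RefSeq genome. This window held a full site with the same substitution and 2 single-arm sites. The farthest one at -100735 bp (chr1:137061097-137061269, score 6.17) held an E-box and neither of the NFI strings searched. In *Nr5a2*, 2 of 7 peaks were thus in the highest quartile and 5 were below the median of the list.

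*Nr0b2* (chromosome 4), the gene of SHP, had 2 peaks of nearly the same score on either side of the gene, 10399 bp apart. The promoter peak (chr4:133552798-133552970, -492 bp) scored 18.3 and the distal one (chr4:133563197-133563369, 9907 bp) scored 18.1, and both were above 97.1% of the list. Their windows differ in letters. The promoter window holds GATAAG 10.5 bp from the peak centre and no NFI string. The distal window holds the exact full site TGGCTCCTAGCCA at its edge, -80 bp from the centre, a second full site TGGCAGCCAGCCT with A13T at -4 bp, and a single-arm site. The NR5A2 octamer lies 9 bases from the second full site. This window falls in RLTR26B_MM, a long terminal repeat of the ERVK class, by the detailed annotation, while 0.5% of it is soft-masked as repeat in the RefSeq genome. Of the protein-coding genes with a peak, 4.66% had a highest score of at least that of *Nr0b2*.

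The 5 peaks of *Bhlha15* (chromosome 5) were all upstream, and 4 of them lay inside *Lmtk2*, a kinase gene that ends 2078 bp before the *Bhlha15* TSS. The promoter peak (chr5:144190013-144190185, -187 bp) had the highest score, 17.9. Its window holds 2 full sites, TGGCCAGATGCGA with C12G at 2 bp from the centre and TGGCAAGTCCCCA with G10C at 44 bp. The NR5A2 octamer CAAGGCCA stands 7 bases before the former, and GATAAG on the minus strand stands 41 bases before it.

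Within *Lmtk2*, the *Bhlha15* peaks were spread over 25319 bp. In intron 7 of 13, the peak at -26945 bp (chr5:144163255-144163427) scored 14.7 and held the full sites GGGCCTGCTGCCA (T1G) and TGGTGACCAGCCA (C4T). Another peak of this intron, at -31440 bp (chr5:144158760-144158932), scored 10.4 and held a single-arm site that overlaps an E-box by 2 bases. The peak at -6121 bp in intron 13 (chr5:144184079-144184251) scored 9.56 and held none of the strings searched. The peak in intron 9 at -20472 bp (chr5:144169728-144169900) scored 4.38, the lowest of the 27, and held 2 single-arm sites. In all, 4 of the 5 peaks were in the highest quartile, and 3 of these 4 lay in *Lmtk2*. A peak in intron 1 of *Lmtk2*, with a score of 3.98, was assigned to *Lmtk2* itself.

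The GATA genes had distal peaks only. At *Gata4* (chromosome 14), all 5 were listed as intergenic, between -10873 and -83994 bp. The 2 highest, at -81042 bp (chr14:63326227-63326399) and -83994 bp (chr14:63329179-63329351), had the same score of 13.7 and were 2952 bp apart. Each held a full site with 1 mismatch, TGTCATCAAGCCA (G3T) and GGGCAGGATGCCA (T1G). The peak at -63948 bp (chr14:63309133-63309305, score 7.37) had the highest focus ratio of the 27, 0.803. Its window held 2 full sites, A13C at -84 bp from the centre and A13T at 27 bp, and the former starts outside the listed peak. The peaks at -57568 bp (chr14:63302753-63302925, score 4.58) and -10873 bp (chr14:63256058-63256230, score 7.37) held no NFI string. The former held the NR5A2 octamer, and the latter held GATAAG, the string of GATA factors. The latter also lies inside *Gata4* once predicted RefSeq transcripts are counted, which start 15568 bp upstream of it.

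The single peak in an intron of the curated *Gata4* transcripts is not among the 5. It lay 35179 bp downstream of the *Gata4* TSS (chr14:63210006-63210178, intron 2 of 6) with a score of 8.37, and the list gives it to *Neil2*, a DNA repair gene at -16567 bp of its TSS. Its window, printed above, holds the exact full site TGGCAGACTGCCA. None of the 5 assigned *Gata4* peaks had an exact site.

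*Gata6* (chromosome 18) had 4 intergenic peaks upstream, spread over 84.4 kb, and all were above the median of the list. The nearest, at -31133 bp (from 11021291 to 11021463), scored 17.5, above 96.6% of the list, and held 2 full sites in a window annotated to the LINE element Lx6. Of this window, 21.5% was soft-masked as repeat. The farthest, at -115561 bp (from 10936863 to 10937035), scored 9.96 and held 1 full site. Between them, peaks at -87866 bp (from 10964558 to 10964730) and -91958 bp (from 10960466 to 10960638) had the same score of 6.97 and 1 single-arm site each. When peaks were assigned to the nearest protein-coding TSS of RefSeq, *Gata6* had 5 peaks. In both GATA genes and in *Nr5a2*, the peak nearest to the TSS was over 10 kb away. *Ptf1a*, *Rbpj*, *Rbpjl*, *Nr0b2* and *Bhlha15* had 1 within 2 kb. The share of protein-coding genes with a nearest peak at these distances was not counted, so this split is a description only.

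The number of peaks was also set against the sequence around each gene. The territory of a gene was taken as the sequence nearer to its TSSs than to those of any other protein-coding gene. It was 14.4 kb for *Nr0b2*, 24.2 kb for *Rbpjl*, 61.6 kb for *Bhlha15*, 91.1 kb for *Ptf1a*, 112 kb for *Gata4*, 238 kb for *Rbpj*, 454 kb for *Gata6* and 779 kb for *Nr5a2*. The median over protein-coding genes was 49.0 kb. Density was taken over the peaks nearest to a TSS of the gene in RefSeq, which are the assigned peaks at 7 of the genes and 5 peaks, not 4, at *Gata6*. Per 100 kb of territory, *Nr0b2* had 13.9 peaks and *Bhlha15* 8.11, followed by *Gata4* with 4.47, *Rbpjl* with 4.14 and *Ptf1a* with 2.19. The lowest values were 1.1 at *Gata6*, 0.899 at *Nr5a2* and 0.421 at *Rbpj*, beside 0.581 over all territories. *Nr5a2*, first by number of peaks, was thus among the 3 lowest by density, and *Nr0b2* was first. A density as high as that of *Nr0b2* was seen in 1.08% of protein-coding genes, and as high as that of *Bhlha15* in 3.69%. The *Rbpj* density was below the overall value, which pools all peaks and territories. Even so, a density as high as that of *Rbpj* was seen in 36.4% of protein-coding genes, and as high as that of *Nr5a2* in 31.7%.

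Since a peak goes to 1 gene only, peaks within 100 kb of each TSS were also counted whichever gene they were given to. There were 46, of which 24 were assigned to the 8 genes and 22 to others. *Gata4* had 11, *Nr0b2* and *Bhlha15* had 10 each, *Nr5a2* had 5, *Rbpjl* and *Gata6* had 3 each, and *Ptf1a* and *Rbpj* had 2 each. The median protein-coding gene had 2, and 1.2% had at least as many as *Gata4*. At *Nr0b2*, 8 of the 10 belonged to others, with scores of at most 8.37, so the 2 assigned peaks were the highest of that region. At *Gata4*, by contrast, the highest peak of the region was one in intron 2 of *Fdft1*, the gene of squalene synthase, at 81006 bp with a score of 14.9. *Ptf1a*, *Nr5a2* and *Gata6* had no such neighbouring peaks.

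An NFI full site was present in 13 of the 27 windows (48.1%), against 51.8% of all peak windows, and an exact one in 2 (7.41%), at *Nr5a2* and *Nr0b2*, against 13.4%. The single-arm site was present in 12 (44.4%, background 33.6%). In the highest score quartile, 9 of 13 windows held a full site, beside 68.0% in the list, and below it 4 of 14, beside 46.2%. These shares were near the background or rest on few peaks, so nothing about the 8 genes is read from them. The full site closest to the peak centre lay between 2 and 52 bp from it, at a median of 31 bp, beside 24 bp in the list. Neither string was present in 8 windows, and 31.7% of the list had neither. The 8 included the *Nr0b2* promoter peak and the *Bhlha15* peak at -6121 bp, with scores of 18.3 and 9.56, which were both in the highest quartile.

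Strings of the 8 factors themselves were found in several of the windows. The NR5A2 octamer was present in 4 windows, at *Nr5a2*, *Nr0b2*, *Bhlha15* and *Gata4* (background 8.93%). GATAAG was present in 4, at *Gata4*, *Nr5a2*, *Nr0b2* and *Bhlha15* (background 7.75%). The E-box was present in 4, at *Ptf1a*, *Nr5a2*, *Bhlha15* and *Gata6* (background 21.4%), and TGGGAA in 7, at *Rbpj*, *Rbpjl*, *Nr5a2* and *Gata4* (background 20.9%). The PTF1 pair, CAGCTG centred within 30 bases of the centre of TGGGAA, was present in none of the 27 windows (background 1.88%). Pairs with other E-box forms were not searched, so the absence of a PTF1 site is not read from this. The printed *Rbpjl* window at -1379 bp holds the form CACCTG near a minus-strand match to TGGGAA. An NFI full site stood with the NR5A2 octamer in 2 windows (background 5.01%), with GATAAG in 2 (background 3.79%), with TGGGAA in 3 (background 10.5%) and with an E-box in 1 (background 11.6%). Each of these shares had a counting interval that held the background.

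Of strings for factors outside the 8, AP-1 (TGANTCA) was present in 4 windows, 3 at *Nr5a2* and 1 at *Gata4* (14.8%, 5.92 to 32.5, background 5.26%). SP (GGGCGG) was present in 3, at *Ptf1a*, *Rbpj* and *Bhlha15* (background 21.1%). FOX (TGTTTAC, background 3.97%) and the HNF1 palindrome (background 0.278%) were found in none. An absent string says only that these letters are not in the window.

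**Figure D3:**
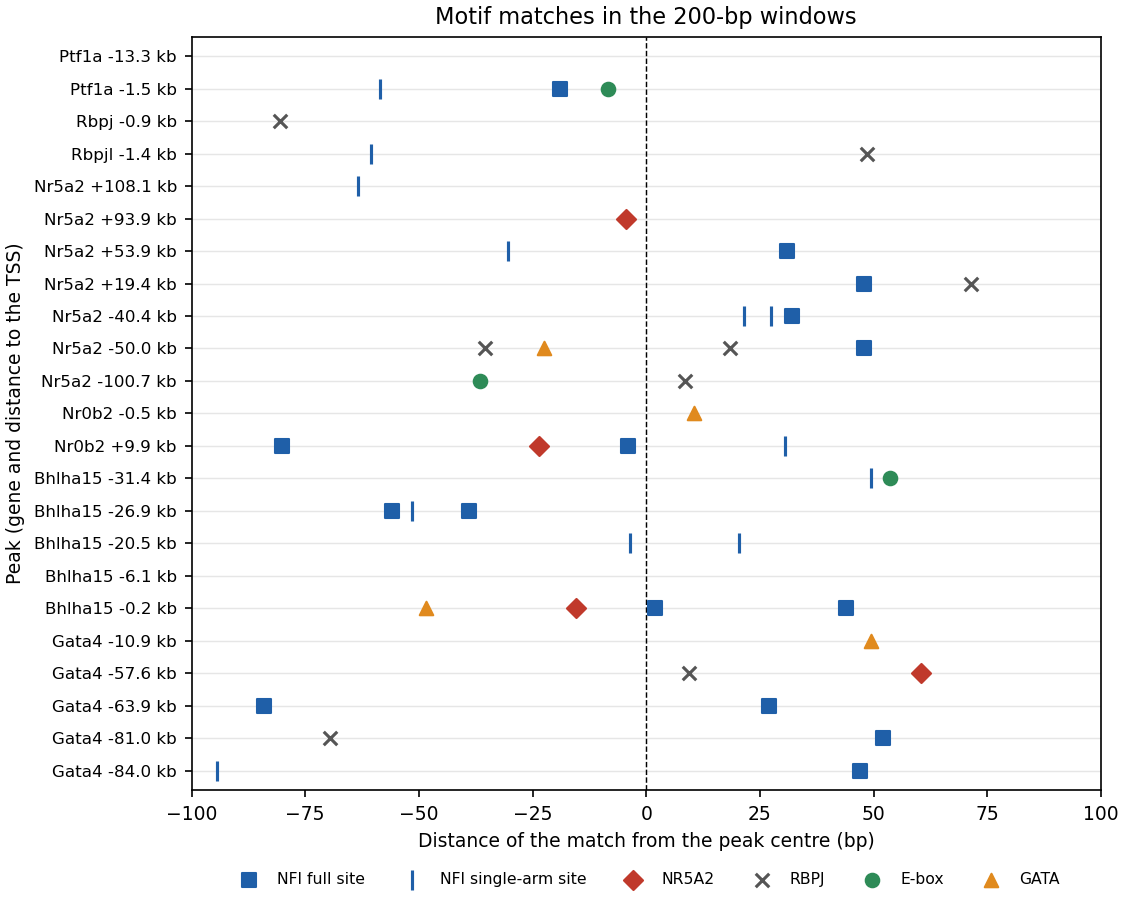
Position of motif matches in the 200-bp windows of 23 peaks (those of *Gata6*, and AP-1 and SP matches, are not drawn), as distance of the middle of a match from the peak centre (bp) on the plus strand. Each row is a peak, named by gene and distance to the TSS. At *Bhlha15* -0.2 kb and *Nr0b2* +9.9 kb, the window holds both an NR5A2 match (red) and an NFI full site (blue square), as do 5.01% of all windows of the list.

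**Figure D4:**
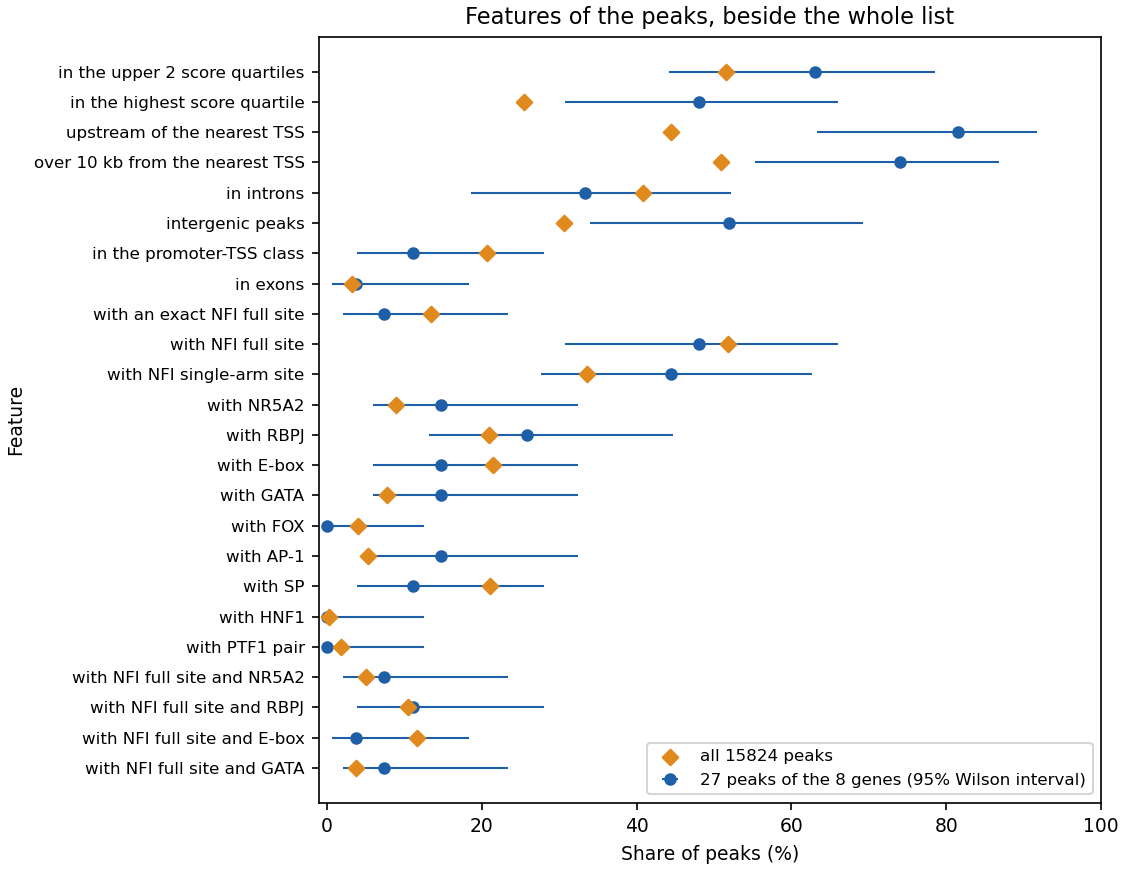
Share of peaks (%) with each feature in the 27 peaks of the 8 genes (circles, bars are 95% Wilson intervals for counting error) and in all 15824 peaks of the list (diamonds). The bars leave out the diamond for the upstream side, the distance over 10 kb, the intergenic class, the highest score quartile and AP-1, and hold it for the NFI full site. Peaks of a gene share its locus and several features overlap, so the bars are not independent and are no test.

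Genes linked to the 8 factors were looked up in the same list. Of 7 genes that code for bHLH partners (the E-proteins *Tcf3*, *Tcf4* and *Tcf12*) and inhibitors (*Id1* to *Id4*), all had a peak, 16 in total, and 1 had a promoter peak, beside 37.2% and 10.7% of protein-coding genes. That was *Id4*, at -690 bp with a score of 6.77. The highest scores of this list were 19.7 at *Tcf12*, at -72292 bp, and 17.3 at *Id2*, at -14334 bp. Of the GATA cofactors, *Zfpm1*, which codes for FOG1, had 5 peaks, among them a promoter peak at -80 bp with a score of 12.7, and *Zfpm2* had none.

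Of close relatives, 6 genes of the GATA, NR5A and NR0B families were looked up, and relatives of the other factors were not. No peak was assigned to *Gata1*, *Gata2*, *Gata5*, *Nr5a1* or *Nr0b1*, and *Gata3*, named after its value was seen, had 1 peak at 257836 bp from the TSS. That is 1 of 6 genes, beside the 37.2% of all protein-coding genes given above, and the difference from the 8 factors was not tested. Of 5 other acinar regulators, 4 had a peak, with the highest scores at *Xbp1*, a factor of the unfolded protein response (12.9 at -34728 bp), and *Foxa2* (11 at 15035 bp). *Prox1* had none, and no gene of this list had a promoter peak. Over the 20 genes, 13 had a peak, beside 37.2% of protein-coding genes, and 2 had a promoter peak, a share close to the background of 10.7%.

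For each of the 8 genes, the protein-coding gene with the most similar set of peaks was found among the 7806 others with a peak. Likeness was measured over the percentiles of the number of peaks, the highest score, the distance of the nearest peak and the share of peaks with a full site. These were *Lpl* for *Ptf1a*, *Pkp4* for *Rbpj*, *Stk11* for *Rbpjl*, *Foxn3* for *Nr5a2*, *Ell2* for *Nr0b2*, *Iffo2* for *Bhlha15*, *Fryl* for *Gata4* and *Inhbb* for *Gata6*. The distance ran from 0.365 percentile points for *Rbpj*, a gene with 1 peak like most bound genes, to 6.26 for *Gata6*. *Foxn3* had 7 peaks with a highest score of 14.3 and its nearest peak at 20765 bp, close to the values of *Nr5a2*. The measure says nothing about function.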

How the data were processed

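NFIC ChIP-Seq of mouse pancreas (3 libraries) and input DNA (1 library) was analysed from a merged peak list. The authors deposited, for each peak, a position on mm10, a score on a scale that the sources used here do not name, a focus ratio (a fraction, described in the report) and the nearest TSS with its distance and class. Per the file headers, the list was annotated with annotatePeaks.pl of HOMER, and the submitters' processing notes name BWA, Picard and MACS2 without a role. The study's methods name fastqc, the RUbioSeq+ pipeline and HOMER under their NFIC ChIP-Seq heading, in a paragraph that starts from downloaded data sets, so it is not certain that all of these steps made this list. All peaks are 173 bp wide.

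There were 0 columns for single samples, so no replicate was compared and no test was made. Gene names were matched to RefSeq by gene ID for 15812 peaks. Motifs were searched on both strands in windows of 200 bp, with the HNF1 string as 2 arms GTTAAT around 1 free base and at most 1 mismatch. The search was tested on simulated data. Shares have 95% Wilson intervals. The 8 genes, the lists and the alternatives were chosen with earlier results of these data known. Named genes are the 8 genes, linked genes with a promoter peak, a peak in the highest quartile or no peak, the most similar gene of each, and hosts of intronic peaks. The remaining linked genes are named only as members of their list, apart from *Gata3* and the genes of neighbouring peaks, which were chosen after their values were seen. Python 3.11, numpy 2.4.6, pandas 2.3.3, scipy 1.17.1 and matplotlib 3.10.9 were used.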

Additional observations from a re-analysis of the deposited data

How the results depend on the processing

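The number of peaks assigned to the 8 genes was 27, and 17 with the upper 2 score quartiles only or 13 with the highest quartile only, when *Ptf1a* and *Rbpj* had none. It was 28 by the nearest protein-coding TSS of RefSeq and 27 with peaks within 1000 bp merged. Genes with a promoter peak were 3, and 5 when the window began at -5000 bp, where *Ptf1a* and *Rbpjl* were added. The background of 10.7% of protein-coding genes is for the window from -1000 bp. No background is given for the wider window, so nothing about the 8 genes is read from the count of 5. With the upper 2 quartiles, genes with a promoter peak were 2, without *Rbpj*. Peaks with an NFI full site were 13, and 2 when no mismatch was allowed (13.4% of all peaks). They were 13 in the peak as listed (50% of all peaks) and 16 in windows of 400 bp (58.3% of all peaks). Peaks within 100 kb of a TSS were 46, and 23 within 50 kb, 68 within 200 kb or 27 with the upper 2 quartiles. With quartiles taken within each annotation class, 17 of the 27 peaks were still in the upper 2. Leaving out each replicate was not run, because the list holds no value for a single library. No paired analysis was possible because the list carries no replicate numbers. The score orders peaks of a merged list and cannot show how much a peak varied between the 3 libraries, so peaks of nearly the same score are not ranked.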
